A study of Mus musculus with 8 samples.

Results

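The genes described here are 9 signalling genes of the interferon response, taken by name from the 49671 gene rows counted in each sample. They are the receptor chains Ifnar1, Ifnar2 and Ifngr1, the kinase Jak1, the transcription factor Stat2 and the interferon regulatory factors Irf1, Irf3, Irf7 and Irf9. All 9 passed the filter on low counts and were among the 14887 genes tested. Polyadenylated RNA was sequenced from 8 mouse samples that the labels call adipocytes, 4 labelled BMPR2 DELX and 4 labelled ROSA, which the series names as its control. Bmpr2 is the type II receptor for bone morphogenetic proteins. The labels do not say what the DELX allele changes, what the ROSA mice carry, the age of the animals or whether a transgene was induced. Nor do they say if each of the 4 samples of a group is a different animal. The p-values therefore refer to the spread between samples only, which may be technical.

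Type I interferons bind a receptor made of the Ifnar1 and Ifnar2 chains, and interferon gamma binds one made of Ifngr1 and Ifngr2. Both receptors carry the kinase Jak1, which pairs with Tyk2 on the type I receptor and with Jak2 on the gamma receptor. On the type I side, phosphorylated Stat2 and Irf9 enter the complex ISGF3, which binds the interferon-stimulated response element (ISRE). On the gamma side, the signal reaches genes through the gamma-activated site (GAS), and Irf1 is a classical target. Irf3 is present before stimulation and is activated by kinases downstream of RNA and DNA sensors, while Irf7 is itself a target of ISGF3 and amplifies the type I response. In adipose tissue and in stromal cells this pathway is known for antiviral defence and for its part in inflammation.

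All 9 genes were found in the RefSeq promoter table (GRCm38.p6), with 11 windows of 250 bases before to 50 bases after a start site. Each window was searched on both strands for an ISRE core, the letters GAAA, any 2 bases and GAAA again, and for the GAS pattern TTCNNNGAA. The ISRE core was found in 1 gene, Stat2, against 3.99% of the 27025 genes in the table and 11 of the 23 ISGF3 target genes with a window. The GAS pattern was found in 3 genes, Ifnar1, Ifnar2 and Irf1, against 9.55% of all genes, and the match of Ifnar1 spanned its start site. The stricter palindrome TTCCNGGAA, which lies within that pattern, was found in Ifnar2, against 1.35% of all genes. Stretches of 100 bases with the matches before a start site are printed below because they show where these letters lie in the promoters of genes that send or relay the signal, and capitals mark the match. They read 5′ to 3′ on the plus strand, which is the strand of all 3 genes. The Stat2 stretch is chr10:128270248-128270347, with the ISRE core, read on the other strand, at positions -222 to -213 from the RefSeq start site. The Irf1 stretch is chr11:53769874-53769973, with the GAS pattern at -90 to -82. The Ifnar2 stretch is chr16:91372533-91372632, with the GAS pattern at -214 to -206. A match describes the letters of the window only, and no binding was measured.
Stat2: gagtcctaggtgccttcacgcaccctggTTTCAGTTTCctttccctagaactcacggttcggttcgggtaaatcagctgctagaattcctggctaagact
Irf1: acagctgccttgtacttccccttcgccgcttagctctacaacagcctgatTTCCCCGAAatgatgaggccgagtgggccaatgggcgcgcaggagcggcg
Ifnar2: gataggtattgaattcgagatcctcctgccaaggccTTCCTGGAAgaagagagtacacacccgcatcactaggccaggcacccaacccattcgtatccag

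Each library held between 28799445 and 43684785 counts in genes, and a count of 0 allows up to 3 counts, or 0.0687 to 0.104 counts for each 1000000 counted in genes (CPM), for counting error only. The share of reads given to no gene was 21.95% in ROSA 1 and 14.7% to 17.3% in the other libraries. The level of Bmpr2 itself was 211 ± 17.6 CPM in BMPR2 DELX, against 197 ± 17.05 CPM in the controls (SD, n = 4), with an edgeR adjusted p of 0.47. Since the reads are summed over the gene, the loss of single exons would not be seen. Of the 12 adipocyte markers, 5 did not exceed 3 counts in any library, and the mean CPM of Adipoq was 0.0791 in BMPR2 DELX and 0.0389 in ROSA, so these defining markers of the labelled cell type were near 0. Others of the list were present, with a mean CPM in BMPR2 DELX and ROSA of 217 and 136 for Lpl, 51.9 and 59.0 for Fabp4, 22.5 and 15.6 for Pparg and 16.1 and 8.69 for Cebpa. The 10 fibroblast markers summed to 18704 to 21405 CPM in BMPR2 DELX and 15946 to 19809 CPM in ROSA. In bulk RNA, fewer cells of a type and less RNA per cell cannot be told apart.

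Stat2, Irf7 and Irf9 were higher in BMPR2 DELX than in ROSA, by 1.81-fold, 1.84-fold and 1.52-fold. The receptor chains, Jak1, Irf1 and Irf3 did not pass the test, and no member (0) was lower. The 3 genes called are 3 of 9, while 3.96% of the 14887 genes tested were called higher, 5.15% lower and 9.10% in either direction (edgeR quasi-likelihood test, Benjamini-Hochberg adjusted p below 0.05). Every BMPR2 DELX library lay above every ROSA library for 5 of the 9 genes, Ifnar1, Jak1, Stat2, Irf7 and Irf9, against 8.32% of all genes tested, and the reverse held for 0 members and 9.65% of all genes. Without ROSA 4, 5 members were called, without ROSA 2, 2 were, and without both ROSA 1 and ROSA 2, a fit chosen after seeing the data that keeps 2 controls, 0 were, with a median log2 fold change of 0.31. Over all genes tested, the same fits called 1266, 477 and 172, against 1355 with all libraries. The median log2 fold change, BMPR2 DELX over ROSA, was 0.31 over the members and 0.0045 over all genes tested. Levels below are CPM scaled by trimmed mean of M values (TMM) unless a length is named, differences are log2 fold changes ± standard error (SE) with n = 4 per group, and intervals are at 95%.

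**Figure D1:**
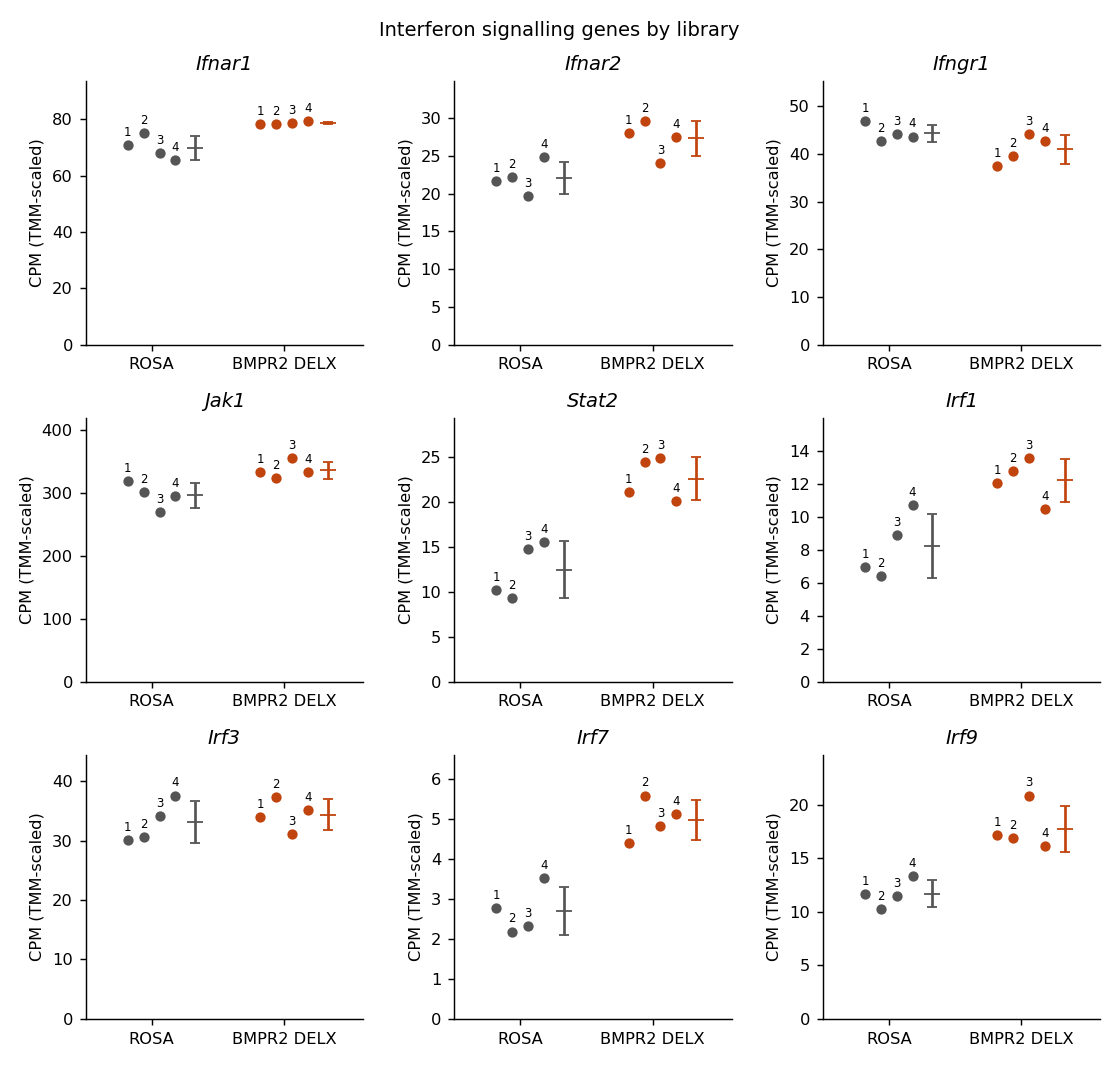
TMM-scaled CPM of the 9 genes in each library, with the replicate number beside each point and the mean ± SD of the 4 libraries as a bar. The groups are separate for Ifnar1, Jak1, Stat2, Irf7 and Irf9 and overlap for Ifnar2, Ifngr1, Irf1 and Irf3.

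Ifnar1 (ENSMUSG00000022967, GRCm38 chromosome 16, 91485238 to 91507441) encodes the chain of the type I receptor that binds Tyk2. It had 78.4, 78.2, 78.8 and 79.3 CPM in BMPR2 DELX 1 to 4 and 70.9, 75.2, 67.9 and 65.4 CPM in ROSA 1 to 4. The BMPR2 DELX values lay within a narrow band, above all ROSA values. The log2 fold change was 0.17 ± 0.06 (95% interval 0.042 to 0.30), and the edgeR adjusted p was 0.094, so a separation of the groups went with a small difference that did not pass. With upper-quartile factors it was 0.21 and passed (adjusted p 0.036, range 0.036 to 0.19 over all alternatives).

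Ifnar2 (ENSMUSG00000022971, chromosome 16, 91372783 to 91405589) encodes the chain that binds Jak1. Its level was 28.0, 29.6, 24.1 and 27.5 CPM in BMPR2 DELX and 21.7, 22.2, 19.6 and 24.8 CPM in ROSA. The groups overlapped because BMPR2 DELX 3 lay below ROSA 4. The log2 fold change was 0.31 ± 0.09 (0.10 to 0.51), with an edgeR adjusted p of 0.064, and without ROSA 4 it was 0.37 and passed (adjusted p 0.042, range 0.028 to 0.27 over all alternatives). Ifnar2 shares 315 of its 3329 exon bases with the predicted gene Gm21970 on the same strand, so reads there cannot be given to either gene.

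Ifngr1 (ENSMUSG00000020009, chromosome 10, 19591949 to 19610229), the ligand-binding chain of the gamma receptor, had 37.4, 39.6, 44.1 and 42.8 CPM in BMPR2 DELX and 46.9, 42.8, 44.1 and 43.7 CPM in ROSA. The lowest values were those of BMPR2 DELX 1 and 2, BMPR2 DELX 4 lay just below the lowest control, ROSA 2, and BMPR2 DELX 3 lay within the ROSA range. Its log2 fold change of -0.11 ± 0.07 (-0.27 to 0.039), the only negative one among the 9, had an edgeR adjusted p of 0.32.

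Ifnar2, Il10rb, Ifnar1 and Ifngr2 lie in this order on the plus strand of chromosome 16, with no protein-coding gene (0) between neighbours in the annotation. Il10rb, a chain shared by the interleukin-10 and interferon lambda receptors, starts after a gap of 574 bases from the end of Ifnar2. Ifnar1 follows after 59403 bases and Ifngr2 after a further 39630 bases. The other 2 genes of the cluster gave log2 fold changes of 0.01 ± 0.09 for Il10rb (edgeR adjusted p 0.95) and -0.09 ± 0.06 for Ifngr2 (0.38). Per length, the ratio of Ifnar1 to Ifnar2 was 1.62 ± 0.149 in BMPR2 DELX and 1.79 ± 0.213 in ROSA (SD, n = 4), and the groups overlapped.

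Jak1 (ENSMUSG00000028530, chromosome 4, 101152367 to 101265282), the kinase on both receptors, had 333, 324, 355 and 333 CPM in BMPR2 DELX and 319, 301, 270 and 295 CPM in ROSA. BMPR2 DELX 2, the lowest of its group, lay just above ROSA 1, the highest of the controls. The log2 fold change was 0.18 ± 0.07 (0.034 to 0.33) with an edgeR adjusted p of 0.11.

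Stat2 (ENSMUSG00000040033, chromosome 10, 128270559 to 128292849), the STAT of the ISGF3 complex, had 21.04, 24.4, 24.8 and 20.1 CPM in BMPR2 DELX and 10.3, 9.34, 14.8 and 15.5 CPM in ROSA. The controls fell into a lower pair, ROSA 1 and 2, and a higher pair, ROSA 3 and 4, and all BMPR2 DELX libraries lay above both. Stat2 rose by 0.86 ± 0.17 (0.48 to 1.23), with an edgeR adjusted p of 0.017. It passed without each library in turn, with log2 fold changes from 0.75 without ROSA 2 to 0.98 without ROSA 4. Without both ROSA 1 and ROSA 2 the difference was 0.59 and did not pass (adjusted p 0.061, range 4.0e-05 to 0.061 over all alternatives). Its annotated start in GENCODE, 128270559, lies after the RefSeq start site, 128270498, from which the ISRE position above is counted.

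Irf9 (ENSMUSG00000002325, chromosome 14, 55603571 to 55610030), the DNA-binding partner in ISGF3, had 17.1, 16.9, 20.9 and 16.1 CPM in BMPR2 DELX and 11.7, 10.3, 11.5 and 13.4 CPM in ROSA. BMPR2 DELX 3 was the highest library, and the highest control, ROSA 4, lay below all of BMPR2 DELX. Irf9 rose by 0.60 ± 0.11 (0.35 to 0.85), with an edgeR adjusted p of 0.013, the smallest of the 9 genes. It passed without each library in turn, from 0.51 without BMPR2 DELX 3 to 0.67 without ROSA 4. Without both ROSA 1 and ROSA 2 it was 0.53 and did not pass (adjusted p 0.11, range 5.6e-05 to 0.11 over all alternatives). Irf9 shares 123 of 5386 exon bases with Rnf31 on the same strand. The ratio of Stat2 to Irf9 per length was 1.12, 1.31, 1.08 and 1.13 in BMPR2 DELX and 0.800, 0.825, 1.17 and 1.05 in ROSA, so that ROSA 1 and 2 had the lowest ratios and ROSA 3 lay within the BMPR2 DELX range.

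Irf7 (ENSMUSG00000025498, chromosome 7, 141262706 to 141266481), the amplifier of the type I response, had the lowest counts of the 9, from 70 to 229 per library. Its level was 4.39, 5.58, 4.81 and 5.12 CPM in BMPR2 DELX and 2.77, 2.18, 2.33 and 3.53 CPM in ROSA. ROSA 4 was the highest control, and all BMPR2 DELX libraries lay above it. Irf7 rose by 0.88 ± 0.17 (0.49 to 1.27), with an edgeR adjusted p of 0.017. Without ROSA 2 the difference was 0.80 and missed the threshold (adjusted p 0.051, range 8.7e-05 to 0.13 over all alternatives). Reads on the opposite strand, where Phrf1 overlaps, came to 8.98% of the stranded reads of Irf7, against 1.19% to 2.64% for the other 8 genes.

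Irf1 (ENSMUSG00000018899, chromosome 11, 53770014 to 53778374), the factor induced through GAS, had 12.0, 12.8, 13.5 and 10.5 CPM in BMPR2 DELX and 6.93, 6.43, 8.91 and 10.7 CPM in ROSA. ROSA 1 and 2 were again the lowest libraries, and ROSA 4 lay just above BMPR2 DELX 4. Its log2 fold change of 0.57 ± 0.16 (0.20 to 0.93) had an edgeR adjusted p of 0.057. Without ROSA 4 it was 0.72 and passed (adjusted p 0.022, range 0.012 to 0.30 over all alternatives). DESeq2, voom and the fit with no count filter also called it, with adjusted p of 0.012, 0.037 and 0.019.

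Irf3 (ENSMUSG00000003184, chromosome 7, 44997648 to 45002848), the factor activated by the sensors, had 34.0, 37.3, 31.1 and 35.1 CPM in BMPR2 DELX and 30.05, 30.6, 34.1 and 37.6 CPM in ROSA. The groups covered nearly the same range. The log2 fold change was 0.06 ± 0.09, with an edgeR adjusted p of 0.73, and its interval of -0.14 to 0.25 leaves out changes of the size of those in Stat2 and Irf7. Irf3 and Irf1 each overlap a gene on the opposite strand, Bcl2l12 and Gm17334, and unstranded counting gave 92.4% and 90.2% of the stranded counts of Irf3 and Irf1.

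**Figure D2:**
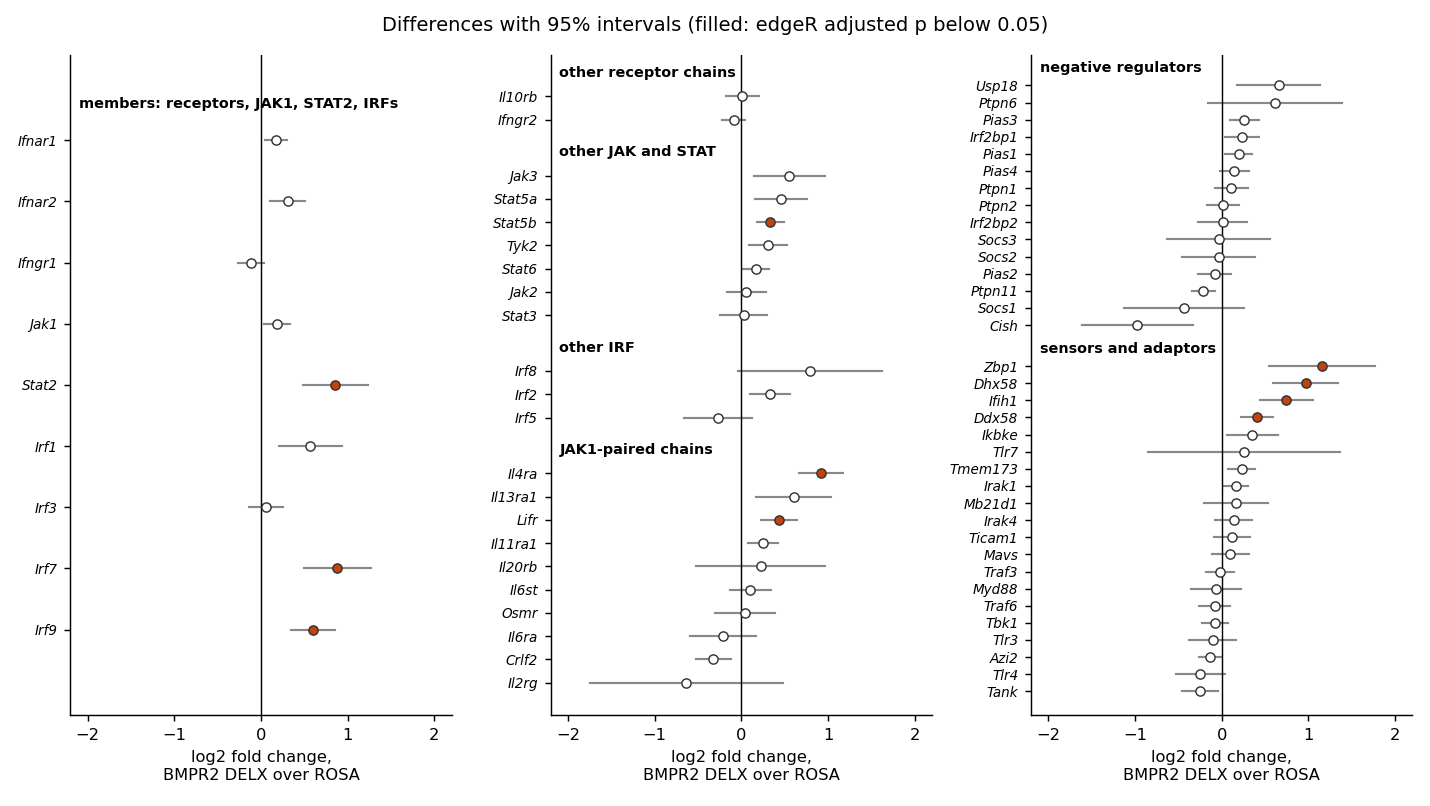
Log2 fold changes, with BMPR2 DELX relative to ROSA (points), with 95% intervals (lines) for the 9 genes and for the tested genes of 6 other lists of the pathway. Filled points passed the edgeR test, and among the members these are Stat2 at 0.86, Irf7 at 0.88 and Irf9 at 0.60.

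Levels of different genes were compared per kilobase (kb) of annotated exon. Jak1 had by far the highest level, 43.8 ± 3.66 CPM per kb (SD, n = 8 libraries of both groups), and Irf7 the lowest, 1.02 ± 0.349. Between them the order was Ifngr1 with 15.0 ± 1.03, Ifnar1 with 12.5 ± 0.921, Irf3 with 9.80 ± 0.853, Ifnar2 with 7.42 ± 1.04, Stat2 with 2.96 ± 1.01, Irf9 with 2.73 ± 0.671 and Irf1 with 2.57 ± 0.659 CPM per kb. Within each group the ranges of Stat2 and Irf9 overlapped, as did those of Irf9 and Irf1. Library by library, Stat2 lay above Irf9 in all of BMPR2 DELX and in ROSA 3 and 4, and below it in ROSA 1 and 2. The order of Irf9 and Irf1 differed between libraries in both groups. Ifngr1 and Ifnar1 overlapped in BMPR2 DELX but not in ROSA, and Irf3 lay above Ifnar2 in all 8 libraries. The length of the longest principal coding transcript, in place of all exons, kept the order of the first 5 genes and of Irf7. It placed Irf9 at 5.99, Irf1 at 4.78 and Stat2 at 3.99 CPM per kb. The genes called were thus among the 4 of lowest level, and Jak1 stood at the 93.1 percentile of all tested genes per length and Irf7 at the 25.6 percentile.

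**Figure D3:**
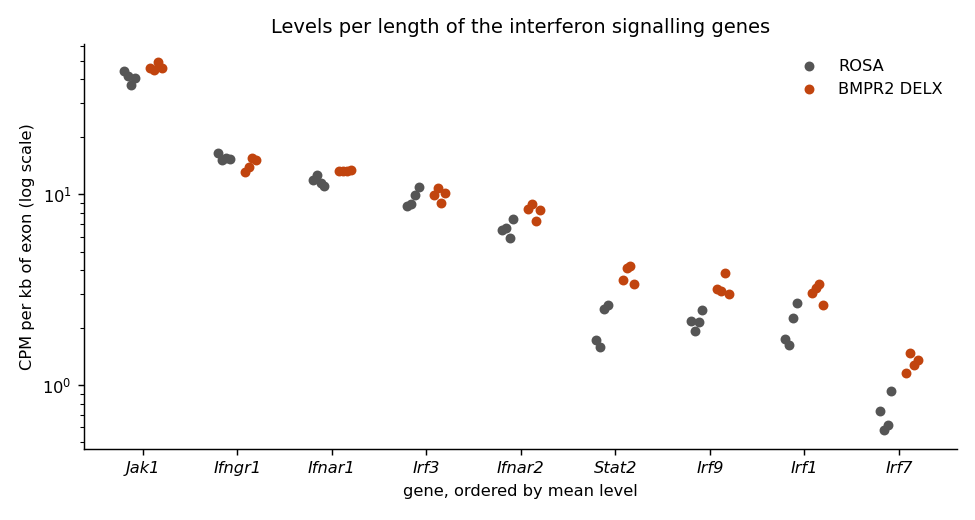
CPM per kb of annotated exon (log scale) of the 9 genes in each library, ordered by the mean over 8 libraries. Jak1 lies highest at 43.8 and Irf7 lowest at 1.02, and the receptor chains and Irf3 lie above Stat2, Irf9 and Irf1.

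The interferon genes themselves gave almost no counts. Of 21 ligand genes 17 had 0 counts in all 8 libraries, among them Ifnb1 and Ifng, and none passed the filter. The other 4 were Ifnz with 19 counts in total, Ifna12 and Ifnab with 2 each and Ifne with 1. Interferon alpha genes are near-identical copies, and reads that mapped to several places are listed apart from the genes in the count files.

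Of 8 other JAK kinases and STATs, 7 were tested, of which 1 was higher, 0 lower and 6 without a call. The shares over all genes tested were 3.96% higher and 5.15% lower. The median log2 fold change of these 7 genes was 0.31. Stat5b, a STAT of growth hormone and cytokine receptors, rose from 27.7 ± 1.93 to 34.9 ± 1.02 CPM (SD, n = 4), with a log2 fold change of 0.33 ± 0.07 and an edgeR adjusted p of 0.018. Its paralog Stat5a had 0.46 ± 0.13 (adjusted p 0.059), and Tyk2, the kinase on the Ifnar1 chain, 0.31 ± 0.10 (adjusted p 0.081). Without ROSA 2, 0 of these genes passed, and without ROSA 4, 4 did. Over all genes tested, these fits called 477 and 1266. None (0) of the 3 tested other IRF genes passed, with Irf2, a repressor related to Irf1, at 0.33 ± 0.10 (adjusted p 0.078), Irf8, a factor of myeloid cells, at 0.79 ± 0.37 (0.21) and Irf5 at -0.27 ± 0.18 (0.37). Irf8 had 3.34, 3.55, 1.14 and 1.43 CPM in BMPR2 DELX 1 to 4 and 1.40, 1.46, 0.998 and 1.58 CPM in ROSA 1 to 4. Only BMPR2 DELX 1 and 2 lay above all ROSA libraries. In edgeR, 1 of the 3 other IRF genes had a raw p below 0.05, and DESeq2 called 1, voom 0 and the edgeR fit without BMPR2 DELX 3 called 1. Of all 14887 genes tested, 3920 had a raw p below 0.05 in edgeR, and DESeq2 called 2298 and voom 1638. The edgeR fit without BMPR2 DELX 3 called 870 of all genes it tested.

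The negative regulators were not called, with 0 of 15 passing in either direction and a median of 0.01. In edgeR, 6 of them had a raw p below 0.05, against 3920 of all 14887 genes tested. DESeq2 called 3 and voom 2, against 2298 and 1638 of all genes tested. The edgeR fits without ROSA 3 and without ROSA 4 called 1 and 2, against 990 and 1266 of all genes tested. Cish, a cytokine-induced inhibitor of STAT5 signalling, had 8.15, 7.39, 9.04 and 6.44 CPM in BMPR2 DELX and 15.7, 24.7, 9.74 and 10.4 CPM in ROSA. All BMPR2 DELX libraries lay below the controls, which were uneven, and the log2 fold change of -0.97 ± 0.29 had an edgeR adjusted p of 0.066. The tyrosine phosphatase Ptpn11 had -0.21 ± 0.06 (adjusted p 0.051) and Pias3, an inhibitor of Stat3, 0.26 ± 0.07 (adjusted p 0.055). Usp18, named after its value was seen, had 0.66 ± 0.22 (edgeR adjusted p 0.086), with all BMPR2 DELX libraries above all ROSA libraries. Of the 15 genes, 3 were separated in this direction and 2 in the reverse, against 8.32% and 9.65% of all genes tested.

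Among the sensors, adaptors and kinases upstream of Irf3 and Irf7, 4 of the 20 tested were higher, 0 lower and 16 without a call, and their median was 0.13. Of all genes tested, 3.96% were called higher and 5.15% lower. The 3 RNA helicases of the RIG-I family rose together. Dhx58 rose by 0.97 ± 0.17 from 1.63 ± 0.0929 to 3.20 ± 0.521 CPM, Ifih1 by 0.74 ± 0.14 from 5.28 ± 0.450 to 8.85 ± 1.505 CPM and Ddx58, which encodes RIG-I, by 0.41 ± 0.08 from 35.8 ± 1.72 to 47.7 ± 5.13 CPM, with edgeR adjusted p of 0.010, 0.013 and 0.018. The fourth was the nucleic acid sensor Zbp1 (1.16 ± 0.27, adjusted p 0.030), named after its values were seen. The signalling proteins that link sensors to Irf3 did not pass. The adaptor genes Mavs and Tmem173 had 0.10 ± 0.09 (edgeR adjusted p 0.55) and 0.23 ± 0.07 (0.065), and the kinase genes Tbk1 and Ikbke -0.08 ± 0.07 (0.49) and 0.35 ± 0.13 (0.12), all named after their values were seen. Without both ROSA 1 and ROSA 2, 0 genes of this list passed, and with 1 library left out 3 to 5 did. Over all genes tested, the first of these fits called 172, and those with 1 library left out called 477 to 1266. None (0) of the 5 tested genes for nucleic acid editing and nucleases passed, and DESeq2 and voom called 0 as well. In edgeR, 0 of the 5 had an unadjusted p below 0.05, against 3920 of all 14887 genes tested. Adar, the RNA-editing enzyme, had 0.18 ± 0.09.

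Genes known as ISGF3 targets were called in 10 of 28 tested, all higher, 0 lower and 18 not passing, with a median of 0.62. Among all genes tested, 3.96% were called higher and 5.15% lower. Parp14, a mono-ADP-ribosyltransferase, rose from 6.87, 6.62, 7.28 and 8.55 CPM in ROSA to 13.1, 15.2, 14.6 and 11.6 CPM in BMPR2 DELX (0.89 ± 0.12, edgeR adjusted p 0.0037). Isg15, a ubiquitin-like modifier, rose by 1.03 ± 0.15 (adjusted p 0.0046) and Oasl2, of the oligoadenylate synthetase family, by 1.63 ± 0.25 (adjusted p 0.0061). The mean log2 CPM of the list was 1.82, 1.90, 1.77 and 1.92 in ROSA 1 to 4 and 2.52, 2.46, 2.61 and 2.32 in BMPR2 DELX 1 to 4. In this mean, ROSA 1 and 2 therefore did not stand below ROSA 3 and 4, as they did in Stat2 and Irf1. By gene, here and in the list that follows, they were the lowest libraries in Parp14 and Psmb8. They were not in Isg15, Oasl2, Tap1 and Irgm2. Of 22 tested targets of interferon gamma and Irf1, 9 were higher, 1 lower and 12 without a call, and the median was 0.35. The shares to set beside these counts are again 3.96% higher and 5.15% lower. Psmb8, an immunoproteasome subunit, rose by 1.17 ± 0.15 (edgeR adjusted p 0.0033), the peptide transporter gene Tap1 by 0.84 ± 0.13 (0.0063) and Irgm2, an interferon-inducible GTPase, by 0.89 ± 0.14 (0.0069). The gene called lower was B2m, the light chain of class I molecules, at -0.27 ± 0.06 (adjusted p 0.028), named after its value was seen. That call was lost with the replicate block and in the fits without BMPR2 DELX 2, 3 or 4 or without ROSA 1, 2 or 4. Without ROSA 2 the lists had 6 calls each, and without ROSA 1 the second had 6. Without both, 0 ISGF3 targets and 1 of the other list passed, while the medians were 0.71 and 0.36. Over all genes tested, calls fell from 1355 to 477 without ROSA 2, to 631 without ROSA 1 and to 172 without both.

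**Figure D4:**
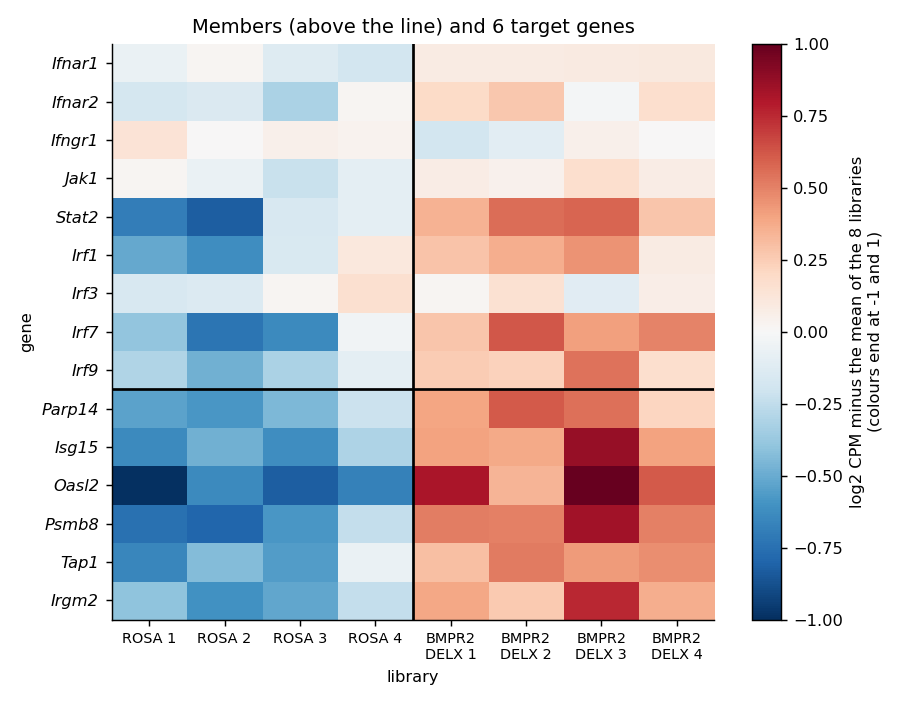
Log2 CPM of each gene minus its mean over the 8 libraries, for the 9 members above the line and 6 target genes below it, with ROSA libraries to the left. Stat2 and Irf1 are lowest in ROSA 1 and 2, while Isg15, Psmb8 and Irgm2 are highest in BMPR2 DELX 3.

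Chains of other cytokine receptors that use Jak1 were also counted, whether or not the chain itself binds the kinase. Of 10 tested, 2 were higher, 0 lower and 8 did not pass (median 0.16), against 3.96% higher and 5.15% lower over all genes tested. Il4ra, the interleukin-4 receptor chain, rose from 250, 218, 197 and 265 CPM in ROSA to 405, 396, 512 and 445 CPM in BMPR2 DELX (0.92 ± 0.11, edgeR adjusted p 0.0030). The leukemia inhibitory factor receptor gene Lifr rose by 0.44 ± 0.09 (adjusted p 0.022), and Crlf2, a chain of the thymic stromal lymphopoietin receptor, had -0.32 ± 0.09 (adjusted p 0.051). The count for this list was 1 without BMPR2 DELX 2 and 1 without ROSA 1. It was 5 with DESeq2 (4 higher, 1 lower) and 4 with voom and 4 with the replicate block (3 higher, 1 lower in both). Over all genes tested, the fits without BMPR2 DELX 2 and without ROSA 1 called 659 and 631. DESeq2 called 2298, voom 1638 and the fit with the replicate block 1245.

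Some markers of immune cells moved with the groups. The 14 macrophage markers summed to 53.9, 42.4, 74.6 and 54.3 CPM, before TMM scaling, in BMPR2 DELX 1 to 4 and 25.96, 32.3, 38.1 and 39.2 CPM in ROSA 1 to 4. Most of this sum was Csf1r, the receptor of colony-stimulating factor 1, with a mean of 29.9 CPM in BMPR2 DELX against 21.3 in ROSA. Of the 7 tested, 1 was higher, Cd68, which encodes a protein of phagocyte lysosomes, with 0.72 ± 0.16 (edgeR adjusted p 0.024), 0 were lower and 6 gave no call. Of these 7 genes, 6 had a positive and 1 a negative log2 fold change. The largest were those of Mpeg1 (1.884 ± 0.583) and Lyz2 (1.504 ± 0.446), named after their values were seen. Neither passed (edgeR adjusted p 0.076 and 0.074), and the groups overlapped for both. Among the markers not tested, the pan-leukocyte gene Ptprc had a mean of 0.256 CPM in BMPR2 DELX against 0.362 in ROSA, and the macrophage gene Adgre1 0.227 against 0.0628. The macrophage sum was highest in BMPR2 DELX 3, where Irf9 and Stat2 were also highest, and lowest in ROSA 1, and its part in the differences of the interferon genes was not tested. The 11 T cell and NK cell markers summed to 0.278 to 0.445 CPM in BMPR2 DELX and 0.198 to 0.376 CPM in ROSA, and the 4 B cell markers to 0.0916 to 0.208 CPM and 0.0579 to 0.142 CPM. Siglech, which marks plasmacytoid dendritic cells, had 0 counts in all libraries, and of the 6 markers on that list 2 were tested and 1 was higher, Bst2, which is also on the ISGF3 target list. Before TMM scaling, Bst2 had a mean of 29.6 CPM in BMPR2 DELX against 20.3 in ROSA, and Tcf4, the other one tested, 134 against 107. The 14 endothelial markers summed to 1592, 1601, 340 and 786 CPM in BMPR2 DELX and 1074, 1381, 619 and 1013 CPM in ROSA, and the groups overlapped with 0 of 13 tested called. Of the tested markers of smooth muscle and pericytes 2 of 7 were lower, Cspg4 and Mcam. Of those of fibroblasts 1 of 9 (Col3a1), of adipocytes 1 of 5 (Lpl) and of epithelium 1 of 7 (Pax8) were higher, and these names were chosen after their values were seen. Over all genes tested, 3.96% were called higher and 5.15% lower. Of the 7 epithelial markers, 5 had a positive and 2 a negative log2 fold change, and for 1 all BMPR2 DELX libraries lay below all ROSA libraries. The adipocyte markers summed to 282 to 341 CPM in BMPR2 DELX and 193 to 242 CPM in ROSA, without overlap. Most of this sum was Lpl, with a mean of 217 CPM in BMPR2 DELX against 136 in ROSA. Of the 5 adipocyte markers tested, 3 had a positive and 2 a negative log2 fold change. The part of these marker differences in the interferon results was not tested.

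**Figure D5:**
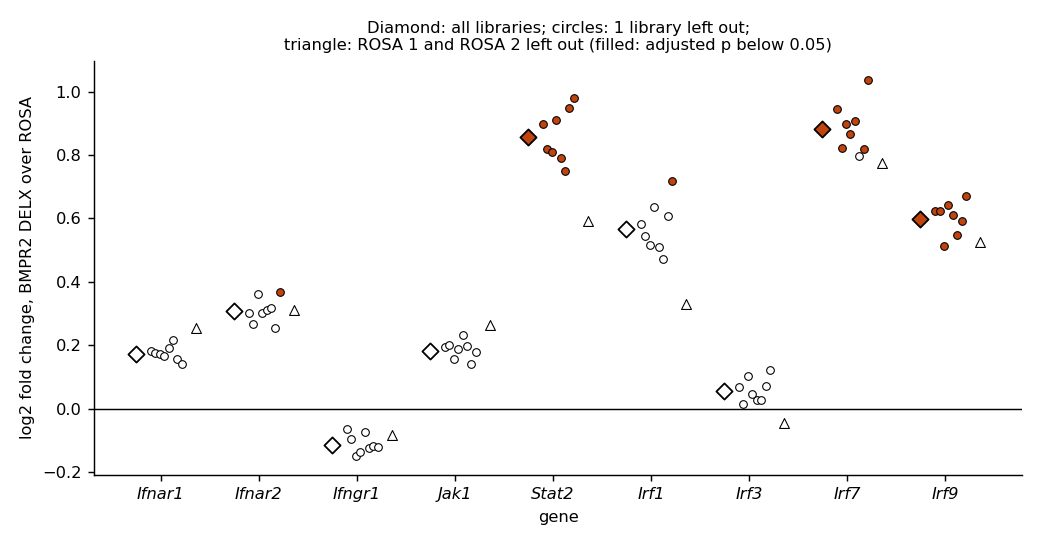
Log2 fold change for each member, with BMPR2 DELX relative to ROSA, with all libraries (diamonds), with 1 library left out (circles) and without ROSA 1 and ROSA 2 (triangles), where filled points had an adjusted p below 0.05. Stat2 and Irf9 passed in all 8 fits that left out 1 library and Irf7 in 7, and none of the 9 genes (0) passed without both ROSA 1 and ROSA 2. That last fit called 172 of 15440 genes tested.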

How the data were processed

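The authors deposited 1 table of counts per library, 4 libraries labelled BMPR2 DELX and 4 labelled ROSA, with whole numbers of reads per Ensembl gene in an unstranded and 2 stranded columns. STAR 2.5.2b, HTSeq and the build GRCm38 are named per the submitters' processing notes, without role or order, and the annotation release, read layout and filters are not given in the sources used here. The fourth column was used, since it held 93.4% of the stranded reads assigned to genes, and the summary lines for reads without a gene were dropped. Symbols and exons came from the GENCODE M21 annotation of GRCm38, in which 49412 of 49671 identifiers were found.

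Counts were filtered with filterByExpr, scaled by TMM and tested with the quasi-likelihood test of edgeR 4.0.16 in R 4.3.3, with all 8 libraries in 1 fit and no covariates. P-values were adjusted by the Benjamini-Hochberg method over all 14887 genes tested, and a gene was called at an adjusted p below 0.05. Alternatives were RLE and upper-quartile factors, DESeq2 1.42.0, voom with sample quality weights (limma 3.58.1), no count filter, a filter of 1 CPM in 4 libraries, the unstranded column, a replicate block and each library left out. A fit without ROSA 1 and ROSA 2 was added after seeing the data. No 2 libraries of a group agreed within sampling noise. The scripts were tested on simulated data.

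The 9 members and all gene and marker lists were chosen with earlier results of these data known, and 1 gene of the pathway lists is not reported here. Named genes were the members, up to 3 genes of each pathway list by smallest p, Bmpr2, genes that define a cell type, and the 4 tested genes with the largest Pearson r of log2 CPM (prior count 2) with the member of smallest p in each direction, Irf9 and Ifngr1. Other names are given as chosen after their values were seen.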

Additional observations from a re-analysis of the deposited data

Results flagged for a closer look

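Among 86 groups of 4 libraries, tested over 43 named genes for 1 library far from the other 3 by Dixon's test, 4 had such a library. Chance alone gives about 1 in 20 groups. None of them (0) was a group of a member. In BMPR2 DELX 3, Isg15 had 11.3 CPM, against 7.98 to 8.13 CPM in the others, and Psmb8 had 10.5 CPM, against 8.35 to 8.41 CPM. In ROSA 1, the library with the largest share of reads given to no gene, Mrtfa had 159.9 CPM, against 135 to 138 CPM in the others, and Flot2 had 125 CPM, against 114 CPM at the lowest and highest of the others.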

How the results depend on the processing

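Of 153 refits of the 9 member fold changes, 140 kept their direction and side of the threshold, 8 passed only in the alternative, 4 no longer passed and 1 changed sign. Genes called, 1355 with all libraries, were 2298 with DESeq2, 477 (without ROSA 2) to 1266 (without ROSA 4) with 1 library left out, and 172 without ROSA 1 and ROSA 2, a fit chosen after seeing the data. Members called, 3 with all libraries, were 5 with upper-quartile factors, 5 with DESeq2, 2 to 5 with 1 library left out and 0 without ROSA 1 and ROSA 2. Calls that appeared were Ifnar1 at 0.21 and Ifnar2 at 0.35 with upper-quartile factors, Ifnar2 at 0.31 with DESeq2, and Irf1 at 0.57 with DESeq2, 0.63 with voom and 0.58 with no count filter. With 1 library left out, Ifnar2 ran from 0.25 to 0.37, Irf1 from 0.47 to 0.72 and Irf7 from 0.80 to 1.04. Without ROSA 1 and ROSA 2, Stat2 at 0.59, Irf7 at 0.78 and Irf9 at 0.53 no longer passed, and Irf3 turned from 0.06 to -0.045. That fit has fewer libraries, and the cause was not tested otherwise. Upper-quartile factors called 734 genes higher and 606 lower, so 54.8% of calls were higher, against 43.5% with TMM.

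Replicate numbers are shared by the groups, but same-numbered libraries deviated together with r of 0.0050, 0.21, 0.24 and 0.093, so the numbers were not taken as pairs, and 2 of 4 BMPR2 DELX libraries correlated best with their own number. With the replicate block 1245 genes were called, 563 higher and 682 lower, and the same number of members, 3. Irf7 had the fewest counts of the members, 70 to 229 per library.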

Other observations

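Over the 8 libraries, the genes whose log2 CPM followed Irf9 most closely were Irgm2, Agrn, Cdon and Dkk3, with Pearson's r of 0.988, 0.986, 0.983 and 0.982. Agrn encodes the basement membrane proteoglycan agrin, Cdon a cell surface receptor of the hedgehog pathway and Dkk3 a secreted protein of the dickkopf family. All 4 were called higher in BMPR2 DELX, and the r within groups, after the group means were taken out, was 0.942, 0.919, 0.938 and 0.901. For Ifngr1 the genes were Arhgap10, Mrtfa, Flot2 and Ociad1, with r of 0.978, 0.977, 0.967 and 0.962, of which none (0) passed the test. By ranks, Spearman's rho with Ifngr1 was 0.976, 0.833, 0.762 and 0.810. Each of them, like Ifngr1 itself, was highest in ROSA 1, the library with the largest share of reads given to no gene. These genes were picked for their r among all tested genes, so the values are a description.

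Among the 36 pairs of members, Stat2 and Irf1 varied most alike within groups, with r of 0.96 over 8 libraries. Ifnar1 varied in the opposite sense to both, with r of -0.89 with Irf1 and -0.89 with Stat2. Ifnar1 hardly varied in BMPR2 DELX, at 78.2 to 79.3 CPM, against 65.4 to 75.2 CPM in ROSA. Its r therefore rests mainly on the ROSA libraries, and these pairs were picked for their r. All these values rest on 4 libraries per group, which share depth and scaling.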
